A study of Mus musculus with 8 samples.

Results

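The antigen presentation and interferon response genes described here are 39 of the 32285 genes in the deposited nuclear count table, chosen by name from a list for which earlier results of these data were known. They were followed in single nuclei from brain hemispheres of 6-month-old mice of the strain C57BL6/J, with cerebellum and olfactory bulb removed. The 4 groups were wild-type (WT) mice, Cnp-/- mice, which lack the myelin protein CNP, 5xFAD mice, which carry mutant human transgenes driven in neurons by the Thy1 promoter and deposit amyloid, and Cnp-/- 5xFAD mice with both. Each group had 2 libraries, so that every p-value measures only the spread between libraries. The study's reporting summary describes a pool of 2 animals per replicate for its single-cell work, which its methods repeat for another age only. All 39 genes were present in the table, which held 61949 nuclei with 6801 to 8824 nuclei and 68905044 to 82399061 unique molecular identifiers (UMIs, counted transcripts) per library, and 454 barcodes occurred in more than 1 library. The authors' labels gave 5612 mature oligodendrocytes, 4810 astrocytes, 1667 endothelial cells and, in a second table of microglia and macrophages, 2086 microglia. The comparisons ask how the loss of a myelin protein and amyloid, alone and combined, bear on immune genes in each of these cell types.

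Class I molecules present peptides from inside the cell to CD8 T cells and consist of a heavy chain (H2-D1, H2-K1 and the non-classical H2-Q, H2-T and H2-M genes) and the light chain B2m. The immunoproteasome subunits Psmb8 and Psmb9 cut the peptides, Tap1 and Tap2 carry them into the endoplasmic reticulum, Tapbp helps to load them, and Nlrc5 is the transcriptional activator of the class I genes. Class II molecules (H2-Aa, H2-Ab1, H2-Eb1, their chaperone Cd74 and their activator Ciita) present ingested material to CD4 T cells and mark professional presenting cells. Interferons act through Stat2, Irf9, Irf1 and Irf7 on genes that block viruses, such as Ifit1, Ifit3, Isg15, Rsad2, Bst2 and Oasl2. Ifih1 and Ddx58 encode the RNA sensors MDA5 and RIG-I. In the healthy brain parenchyma these genes are known to be weakly used outside vessels, microglia and border macrophages.

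Of the 39 genes, 16 lie on chromosome 17, where the mouse major histocompatibility complex is, and Ifit1, Ifit2 and Ifit3 lie together on chromosome 19 (GENCODE M21, GRCm38). The element through which Stat2 and Irf9 act contains the letters GAAANNGAA. RefSeq promoters (GRCm38.p6, 250 bases before to 50 after the start site) were given for 31 of the 39 genes. The letters were found on either strand in 12 of the 31, against 9.76% of 27025 genes with a promoter in the same table. They were in 6 of 10 promoters of interferon-stimulated effectors, in 2 of 2 of RNA sensors, in 2 of 8 of class I heavy chains and in 0 of 2 of class II genes. The stretches below show the 3 genes with 3 matches each and 2 class I genes, with each match in capitals (overlapping matches run together), upstream of the start site and 5′ to 3′ on the strand of the gene. They lie at chr19:34640760-34640833 (+), chr19:34583354-34583455 (+), chr4:156200856-156200916 (-), chr2:122147528-122147576 (+) and chr17:36042904-36042952 (-). A match is a description of the sequence and not a shown binding site. Only this pattern was searched, so that a promoter without a match is not shown to lack a related element.
Ifit1: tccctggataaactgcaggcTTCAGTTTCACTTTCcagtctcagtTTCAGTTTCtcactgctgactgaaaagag
Ifit3: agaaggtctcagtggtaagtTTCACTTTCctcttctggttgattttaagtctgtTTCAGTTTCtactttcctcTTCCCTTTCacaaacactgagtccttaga
Isg15: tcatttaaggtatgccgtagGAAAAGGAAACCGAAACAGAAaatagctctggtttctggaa
B2m: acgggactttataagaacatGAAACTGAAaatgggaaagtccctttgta
H2-T22: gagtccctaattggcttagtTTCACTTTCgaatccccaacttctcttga

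Levels are given as UMIs per 1000000 UMIs of the summed profile of a cell type in 1 library (CPM). The assay counts the 3′ end of nuclear transcripts, so that values of different genes are not per length and are not read as an order of transcript numbers. Summed over the 39 genes, endothelial cells held 2096 to 3216 CPM, microglia 1087 to 2136 CPM, astrocytes 314 to 518 CPM and mature oligodendrocytes 150.0 to 357 CPM over the 8 libraries. Neurons held 109 to 130.3 CPM. Macrophages reached the endothelial range, with 2562 to 3166 CPM over 5 profiles. So did the microglial subpopulations described below as amyloid-DAM (2132 to 2984 CPM) and myelin-DAM (2005 to 3082 CPM), with 4 profiles each. Among mature oligodendrocytes, astrocytes, endothelial cells and microglia, the highest mean was in endothelial cells for 28 genes and in microglia for 11. Every endothelial library lay above every library of mature oligodendrocytes for 30 of the 39 genes. Among the 36 with a UMI in both types it did so for 28, against 21.9% of 18993 genes with a UMI in both. It lay above every astrocyte library for 32 of 39 (17.2% of 20513 genes) and above every microglial library for 14 of 39 (13.3% of 18165 genes). Macrophages, with 5 profiles of at least 20 nuclei, had the highest mean of 9 populations for 15 genes, among them all 5 class II genes, and endothelial cells for 22.

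**Figure D1:**
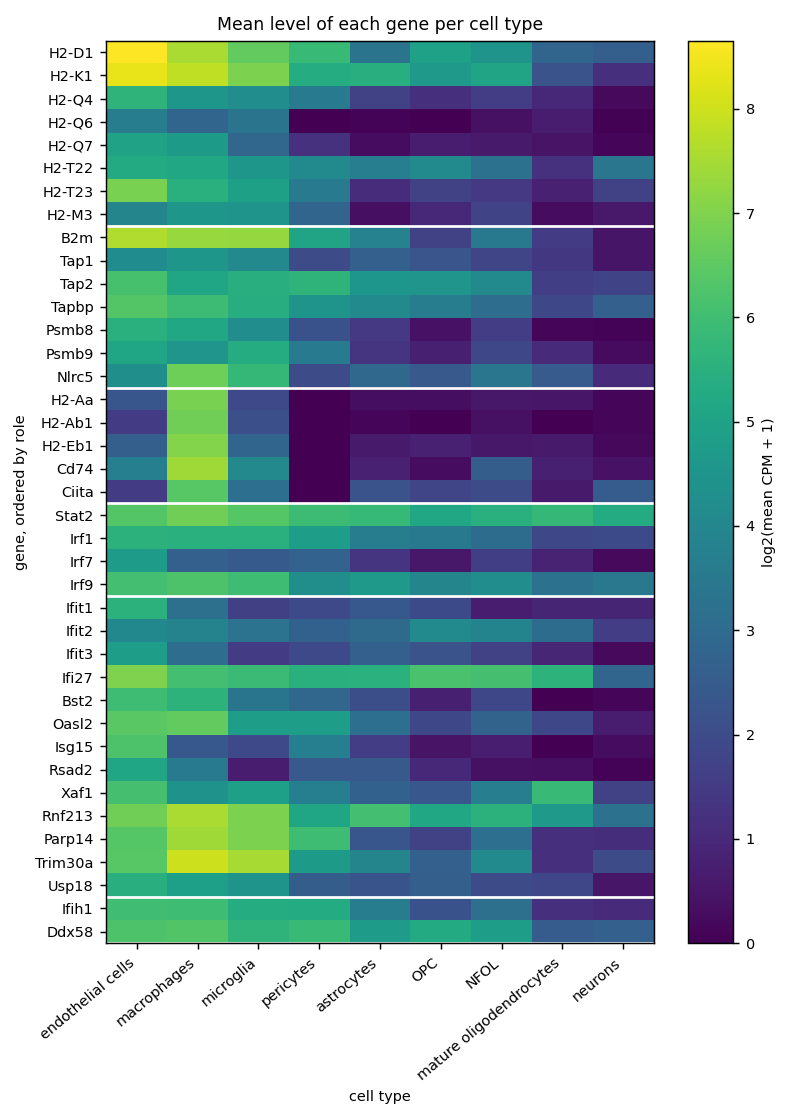
Mean level of each of the 39 genes (rows, grouped by role between white lines) in 9 populations (columns), as log2(mean CPM + 1) over library profiles of at least 20 nuclei. H2-D1, H2-K1 and B2m are brightest in endothelial cells and class II genes in macrophages, where Cd74 averaged 171 CPM.

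H2-D1 and H2-K1 had their highest mean levels in endothelial cells. H2-D1 averaged 402 ± 52.1 CPM (SD, n = 8) in endothelial cells, H2-K1 averaged 327 ± 44.4 CPM, B2m 194 ± 34.6 CPM and H2-T23, a non-classical heavy chain, 118 ± 30.4 CPM. Ifi27, an interferon-inducible mitochondrial protein gene, was the other of the 5 genes with the highest mean, at 124 ± 8.87 CPM. An H2-D1 UMI was found in 68.5% of endothelial nuclei at a median of 3598 UMIs per nucleus, in 13.9% of microglial nuclei at 1296 UMIs and in 1.10% of mature oligodendrocyte nuclei at 1515 UMIs. In neurons the share was 5.50% at 9105 UMIs. When nuclei were thinned to a common depth within each type, which left out the shallowest, the H2-D1 shares were 42.7% in endothelial cells (1387 UMIs), 7.78% in microglia (744 UMIs), 0.475% in mature oligodendrocytes (825 UMIs) and 1.83% in neurons (3845 UMIs). The shares of mature oligodendrocytes and neurons are at different depths and are not read against each other. As levels, H2-D1 was at 0 to 3.05 CPM in mature oligodendrocytes and 3.60 to 10.99 CPM in neurons of the 4 libraries without 5xFAD. It was at 7.21 and 4.48 CPM against 4.35 and 2.14 CPM in 5xFAD and at 29.8 and 2.05 CPM against 4.21 and 3.62 CPM in Cnp-/- 5xFAD. Neuronal nuclei were far deeper, and a background of free RNA was not measured for oligodendrocytes, so that nothing is read from this order. For B2m the thinned shares were 20.0% in endothelial cells, 11.4% in microglia, 0.178% in mature oligodendrocytes and 0.0714% in neurons, and the oligodendrocyte nuclei with B2m came from 2 of the 8 libraries.

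The cell type labels were checked against their markers. The 6 endothelial markers summed to 11235 to 14007 CPM in endothelial cells, and the 6 oligodendrocyte markers to 13071 to 16283 CPM in mature oligodendrocytes. Nuclei with the endothelial label also held the 5 pericyte markers, led by Rgs5 and Vtn, at 3343 to 5866 CPM with the highest value in WT replicate 2. Microglial markers there summed to 199 and 213 CPM in the WT libraries and to 229.7 to 345 CPM in the other 6. Macrophage markers summed to 9.99 and 4.66 CPM in WT and 7.13 to 31.8 CPM in the others, and T cell markers to 2.73 and 1.55 CPM in WT and 0 to 16.2 CPM in the others. Their part in the endothelial results was not tested. Xist gave at most 1 UMI and the Y-linked Uty 98 to 235 UMIs in the endothelial profile of every library, so that the libraries did not differ in this respect. The study's reporting summary describes the animals of its Cnp-/- crosses as female, which these counts go against. Its methods, however, give both sexes for the study as a whole.

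No gene of the 39 passed an adjusted p of 0.05 in any of 28 comparisons fitted by edgeR's quasi-likelihood test across all genes (5 of them, the mean of the 3 mutant genotypes over WT, were added after the levels had been seen), and DESeq2 called 0 in the 22 it was run on. The values below are therefore descriptions of libraries, with unadjusted p-values only as a count beside them. Genes are measured in the same nuclei, so that counts of genes in 1 direction are not independent of each other. In bulk profiles of a type, a change in which nuclei carry the label and a change in RNA per nucleus cannot be told apart.

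In endothelial cells the 2 WT libraries were the lowest for a set of class I and interferon genes. Both WT libraries lay below all 6 others for 11 of the 35 genes tested, against 3.44% of 11754 genes, and above all 6 others for 0 of 35, against 3.07% of these genes. The filter on low counts lets a gene in through the libraries where it is high. H2-Q6 (3 and 1 UMIs in WT) and Nlrc5 (7 and 2) entered through mutant libraries, so that their place in this order was partly set by the filter. The 11 genes were H2-K1, H2-Q6, H2-Q7, H2-T22, Tap1, Nlrc5, Irf1, Ifit1, Ifit3, Oasl2 and Ddx58, a choice made after their values were seen. They span the heavy chains, peptide transport, the class I activator, interferon transcription factors, antiviral effectors and an RNA sensor. The light chain B2m (126 and 243 CPM in WT, 171 to 220 CPM elsewhere), H2-D1 (323 and 428 CPM in WT, 353 to 498 CPM elsewhere) and H2-T23 (80.9 and 180 CPM in WT, 89.6 to 135 CPM elsewhere) did not follow this order, and in all 3 WT replicate 2 was far above WT replicate 1. Ifi27 lay between 115 and 141 CPM in all libraries with no order by genotype.

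Ifit1, an antiviral RNA-binding protein gene, was at 24.5 and 18.7 CPM in the WT libraries, 64.5 and 44.9 CPM in Cnp-/-, 45.3 and 32.7 CPM in 5xFAD and 65.8 and 70.9 CPM in Cnp-/- 5xFAD. The WT values did not overlap with those of any mutant, and the double mutant lay highest. The effect of Cnp loss, taken over both amyloid backgrounds, was 1.06 ± 0.194 on the log2 scale (SE; adjusted p = 0.175, edgeR). Ifit3 was at 13.6 and 10.9 CPM in WT, 42.4 and 27.1 CPM in Cnp-/-, 20.7 and 27.4 CPM in 5xFAD and 38.8 and 39.3 CPM in Cnp-/- 5xFAD, and its effect of Cnp loss was 1.08 ± 0.233 (adjusted p = 0.234, edgeR). Without the filter on low counts the adjusted p of Ifit1 was 0.000133 and that of Ifit3 0.00762 (edgeR). With the filter, DESeq2 and the replicate block called 0 of the 39 genes in the 22 comparisons each was fitted to. Ifit1 and Ifit3 are neighbours on chromosome 19, and both hold the motif in the promoter. Isg15, a ubiquitin-like modifier with the motif in its promoter, was at 66.3 and 54.4 CPM in WT, 114 and 67.1 CPM in Cnp-/-, 68.8 and 52.1 CPM in 5xFAD and 79.8 and 87.8 CPM in Cnp-/- 5xFAD. Its libraries overlapped between WT and 5xFAD. Rsad2, which encodes the antiviral enzyme viperin and also holds the motif, lay between 23.8 and 44.7 CPM without separation of the genotypes.

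H2-Q7, a heavy chain of the Qa-2 type, and H2-T22 were the 2 of 35 genes without overlap between any genotypes, against 1.19% of 11754 genes, and are named here after their values were seen. H2-Q7 was at 12.7 and 12.4 CPM in WT, 20.2 and 23.5 CPM in Cnp-/-, 34.9 and 40.6 CPM in 5xFAD and 56.1 and 43.9 CPM in Cnp-/- 5xFAD, with no overlap between any pair of genotypes. The 5xFAD effect was 1.37 ± 0.198 on the log2 scale (adjusted p = 0.726, edgeR), and its adjusted p was 0.0381 without WT replicate 1 and 0.000231 without the filter on low counts. H2-Q6, its near-identical neighbour, was at 2.73 and 1.55 CPM in WT, 7.70 and 14.3 CPM in Cnp-/-, 12.3 and 20.3 CPM in 5xFAD and 17.3 and 14.6 CPM in Cnp-/- 5xFAD. Reads of H2-Q6 and H2-Q7 can be assigned to either, and the split between them is uncertain. Nlrc5, the class I activator, was at 6.36 and 3.11 CPM in WT and at 21.2 to 28.3 CPM in the 6 mutant libraries. The mutant genotypes overlapped with each other, the effect of Cnp loss being 0.99 ± 0.275 (adjusted p = 0.343), that of 5xFAD 1.14 ± 0.274 (adjusted p = 0.908) and the interaction -2.27 ± 0.548 (adjusted p = 0.447, edgeR). These levels rest on few molecules, since Nlrc5 gave 169 UMIs and H2-Q6 103 UMIs over all 1667 endothelial nuclei.

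**Figure D2:**
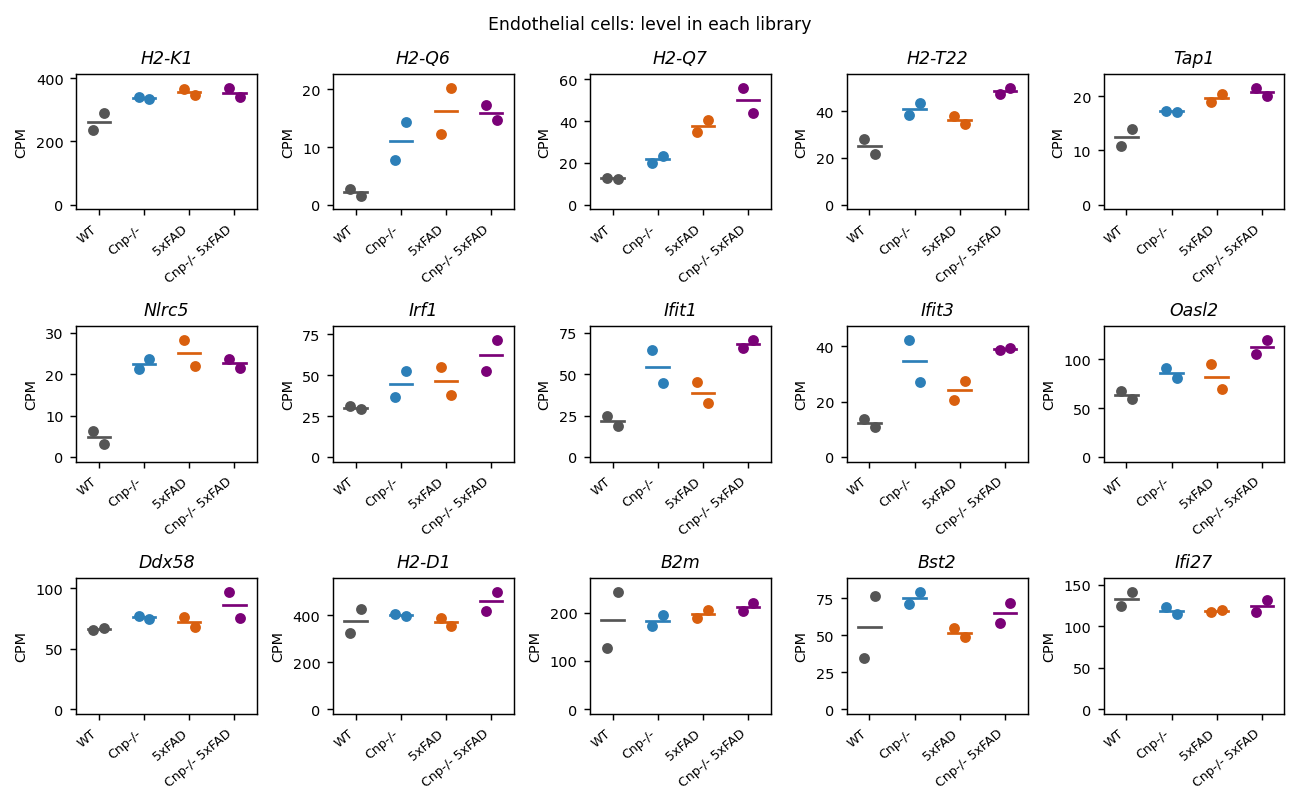
Level of 15 genes in endothelial cells (CPM, axis from 0) in each library, 2 points per genotype with a line at their mean. The first 11 panels are the genes with both WT libraries lowest, and H2-D1, B2m, Bst2 and Ifi27 are shown for contrast.

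The smaller steps were of the same order. H2-T22 was at 28.2 and 21.8 CPM in WT and 34.4 to 50.1 CPM in the mutants, Irf1 at 30.9 and 29.5 CPM against 36.6 to 71.6 CPM, and H2-K1 at 235 and 289 CPM against 333 to 369.9 CPM. Oasl2, an oligoadenylate synthetase-like gene, was at 68.1 and 59.1 CPM in WT and 69.8 to 120.2 CPM in the mutants, and Tap1 at 10.9 and 14.0 CPM against 17.1 to 21.6 CPM. The smallest mutant value of Oasl2, in 5xFAD replicate 2, was close to WT replicate 1. Of the 35 endothelial genes tested, 12 had an unadjusted p under 0.05 for Cnp loss, 8 for 5xFAD and 2 for the interaction, against 8.04%, 5.22% and 5.87% of 11754 genes at the same unadjusted threshold, so that the count for the interaction was at the background. The adjusted threshold was passed by 0.0425%, 0% and 0% of all genes. For Cnp loss, 32 of the 35 log2 fold changes were positive with a median of 0.30, against 0.0075 over all genes tested. For 5xFAD, 26 of 35 were positive with a median of 0.14, against 0.0040 over all genes. The mean of the mutants over WT gave 11 of 35 genes with an unadjusted p under 0.05 (3.93% of all genes) and 0 past the adjusted threshold (0% of all genes).

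Role by role, 12 of 13 interferon-stimulated effectors had a positive log2 fold change for Cnp loss in endothelial cells (median 0.42), as did 7 of 8 heavy chains (median 0.20), 6 of 7 genes of the light chain, peptide supply and regulator (median 0.30), 4 of 4 interferon transcription factors (median 0.27) and 2 of 2 RNA sensors (median 0.38). For 5xFAD the medians were 0.14 for the effectors (9 of 13 positive), 0.23 for the heavy chains (6 of 8), 0.13 for the peptide supply genes (6 of 7), 0.13 for the transcription factors (3 of 4) and 0.16 for the sensors (2 of 2). Of class II only Cd74 was tested, and its fold change was positive for Cnp loss and negative for 5xFAD. Other genes of these pathways, from lists that hold none of the 39, gave 30 of 34 positive for other interferon-stimulated genes (median 0.23), 12 of 14 for interferon receptors and signalling (0.17), 6 of 9 for other class I genes (0.16) and 1 of 6 for other class II genes (-0.25) with Cnp loss, and none passed the adjusted threshold in either direction. With 5xFAD the medians were 0.083 for other interferon-stimulated genes (24 of 34 positive), -0.0015 for receptors and signalling (7 of 14), -0.013 for other class I genes (4 of 9) and 0.048 for other class II genes (3 of 6).

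**Figure D3:**
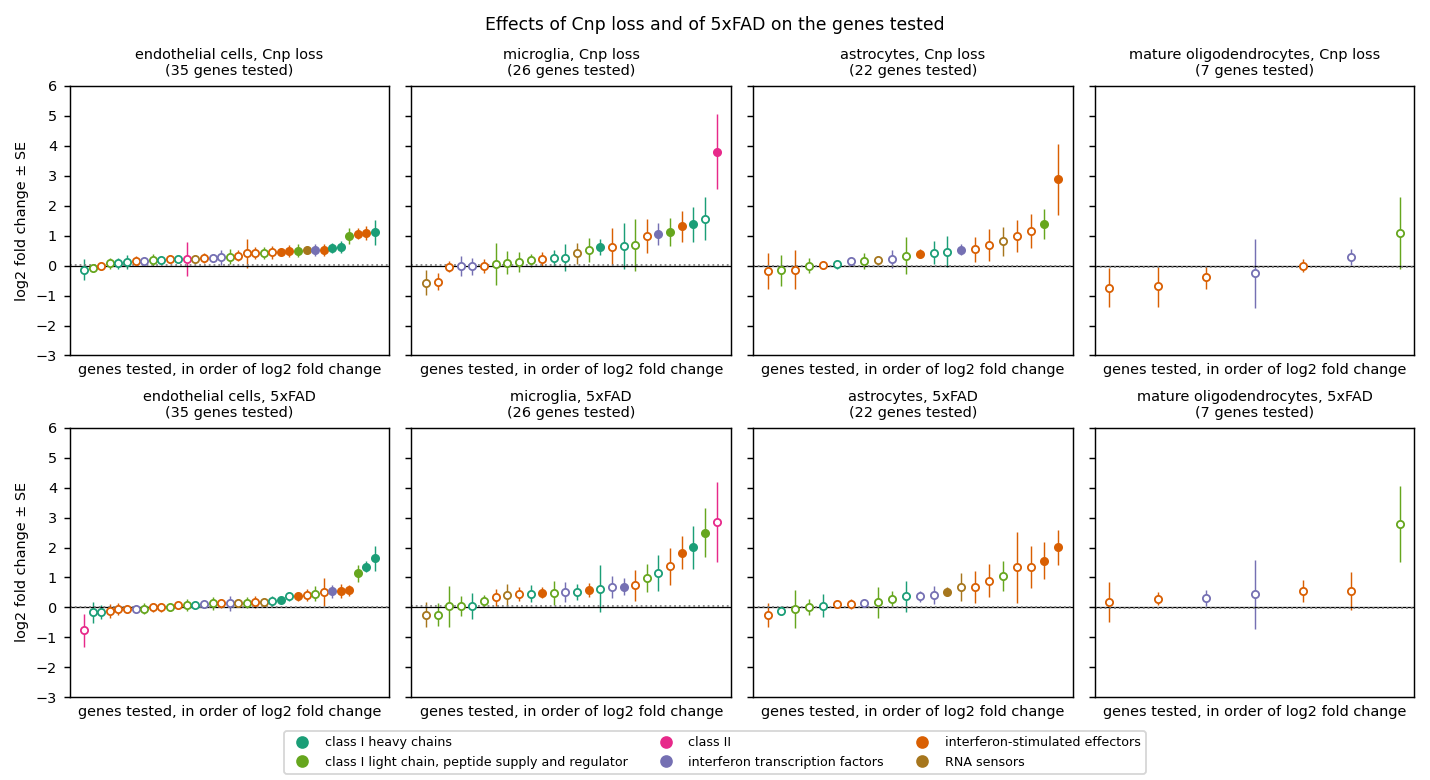
Log2 fold change with its SE (points and bars, in order of size) of the genes tested for Cnp loss (upper row) and 5xFAD (lower row) in 4 cell types, coloured by role. Filled points had an unadjusted p under 0.05, none passed the adjusted threshold, and the dotted line is the median of all genes tested (0.0075 for Cnp loss in endothelial cells). The class II point in microglia is Cd74, whose fold change depends on the fit because WT had 0 UMIs.

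Ifit1 UMIs were spread over the endothelial nuclei and occurred more often beside UMIs of other interferon genes. They were found in 267 of 1667 nuclei, with at most 9 in 1 nucleus. Nuclei of all 8 libraries were pooled. The share with Ifit1 ran from 9.24% to 22.6% between libraries, and these differences enter the shares below. An Isg15 UMI was in 48.7% of the nuclei with Ifit1 and in 17.4% of those without, but nuclei with Ifit1 were deeper (median 6458 against 3193 UMIs). After the 974 nuclei with at least 3000 UMIs had been thinned to 3000, the shares were 35.5% of 138 nuclei with Ifit1 and 14.7% of 836 without. For Ifit3 they were 19.6% and 6.58%, and for H2-D1 79.0% and 62.4%. In microglia Ifit1 was at 0 to 8.63 CPM, where 0 UMIs in WT allow up to 9.03 CPM. The part of RNA from other cells in the endothelial values was not tested.

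Class II genes in endothelial cells came from few nuclei. H2-Aa, H2-Ab1, H2-Eb1 and Cd74 gave 194 UMIs in all, of which 158 were in 14 nuclei with UMIs of at least 2 of these genes. These 14 nuclei came from 7 of the 8 libraries, with 0 in 5xFAD replicate 1 and 4 in Cnp-/- 5xFAD replicate 2. All 14 held an endothelial marker, as did 99.9% of the others. A microglial marker was in 13 of the 14, against 54.4% of the others, a macrophage marker in 4, against 2.66%, and a T cell marker in 3, against 2.06%. H2-Aa, H2-Ab1, H2-Eb1 and Ciita did not pass the filter on low counts in any of the 4 main cell types, and Cd74 passed it in endothelial cells and microglia.

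In microglia the WT libraries were likewise low for a set of genes, on far fewer molecules and with another mixture of states. Summed heavy chains, peptide supply genes and class II genes were lowest in WT, and the other roles were not. Effectors were at 479 and 464 CPM in WT and 403 CPM in Cnp-/- replicate 2. Interferon transcription factors were at 160 and 102 CPM in WT and 138 CPM in Cnp-/- replicate 2. RNA sensors were highest in WT replicate 1, at 135 CPM. The 2 WT libraries held 168 and 51 microglia, of which 92.3% and 94.1% were labelled homeostatic, against 32.4% to 51.2% in the 6 mutant libraries, and 1 UMI was worth up to 11.3 CPM. The 6 oligodendrocyte markers summed to 1323 and 1076 CPM in WT microglia and to 1905 to 4094 CPM in the others, and the 8 microglial markers to 8822 and 9105 CPM in WT and 5461 to 6538 CPM in the others. Macrophage markers summed to 36.9 and 0 CPM in WT and 26.1 to 189 CPM in the others, and endothelial markers to 107 and 90.6 CPM in WT and 133 to 286 CPM in the others. Their part in the values below was not tested. Both WT libraries lay below all others for 8 of 26 genes tested (H2-Q4, H2-T22, Tap1, Nlrc5, Cd74, Irf1, Xaf1 and Ifih1), against 11.3% of 8185 genes, and above all others for 0 of 26, against 9.25%. H2-Q4 and Tap1 gave 1 and 0 UMIs in the WT libraries, H2-T22 1 and 1, Cd74 0 and 0 and Nlrc5 7 and 0. These genes, and Irf1 with its WT levels below, passed the filter on low counts only with mutant libraries. Their place in this order was therefore partly set by the filter. Irf1 was at 16.4 and 22.7 CPM in WT, 59.0 and 47.8 CPM in Cnp-/-, 36.0 and 50.0 CPM in 5xFAD and 71.1 and 50.8 CPM in Cnp-/- 5xFAD, with an effect of Cnp loss of 1.06 ± 0.377 (adjusted p = 0.242, edgeR). Cd74 had 0 UMIs in both WT libraries, which allows up to 9.03 CPM over the group (3 counts; counting error only), and was at 11.8 and 31.8 CPM in Cnp-/-, 8.63 and 13.1 CPM in 5xFAD and 18.5 and 42.6 CPM in Cnp-/- 5xFAD. The 5xFAD values reach below and just above that limit.

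For 5xFAD in microglia, 7 of 7 effectors tested had a positive log2 fold change (median 0.59), as did 6 of 6 heavy chains (median 0.57), 3 of 3 interferon transcription factors (median 0.68) and 6 of 7 genes of the light chain, peptide supply and regulator (median 0.22), while 1 of 2 RNA sensors did (median 0.085). For Cnp loss the counts were 6 of 6 heavy chains (median 0.63), 7 of 7 genes of the light chain, peptide supply and regulator (0.17), 4 of 7 effectors (0.22), 1 of 3 transcription factors (-0.024) and 1 of 2 sensors (-0.080). Oasl2 was at 4.10 and 11.3 CPM in WT, 25.9 and 10.6 CPM in Cnp-/-, 31.7 and 41.3 CPM in 5xFAD and 39.8 and 50.8 CPM in Cnp-/- 5xFAD, so that all 4 libraries with 5xFAD lay above all 4 without it. Its 5xFAD effect was 1.83 ± 0.554 (adjusted p = 0.251, edgeR). Tap1 was at 4.10 and 0 CPM in WT, 4.72 and 10.6 CPM in Cnp-/-, 36.0 and 15.2 CPM in 5xFAD and 24.2 and 32.5 CPM in Cnp-/- 5xFAD (2.50 ± 0.822, adjusted p = 0.295, edgeR). Stat2, a transducer of type I interferon signals, was at 73.8 and 45.3 CPM in WT, 73.1 and 47.8 CPM in Cnp-/-, 111 and 100.1 CPM in 5xFAD and 109.6 and 89.3 CPM in Cnp-/- 5xFAD (0.69 ± 0.274, adjusted p = 0.417, edgeR). For Tap1 and Stat2, too, the libraries with and without 5xFAD did not overlap. All 4 libraries with 5xFAD lay above all 4 without it for 7 of the 26 genes tested (also H2-Q4, Rnf213, Trim30a and Usp18), against 3.56% of 8185 genes. The limit from the filter on low counts holds here at least for H2-Q4, Tap1 and Oasl2. They passed it only with libraries that carry 5xFAD. Their place in this order, the effects of Oasl2 and Tap1 and the counts of positive genes that include them were partly set by the filter.

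The 5 genes with the highest mean in microglia were Trim30a, an interferon-inducible regulator of the tripartite motif family (182 ± 39.1 CPM, SD, n = 8), B2m (154 ± 25.8 CPM), H2-K1 (124 ± 52.1 CPM), Rnf213, a large ubiquitin ligase (124 ± 33.2 CPM), and Parp14, an ADP-ribosyltransferase (121 ± 30.8 CPM). Trim30a was at 159.8 and 159 CPM in WT, 146 and 138 CPM in Cnp-/-, 203 and 220 CPM in 5xFAD and 182 and 250 CPM in Cnp-/- 5xFAD, again without overlap between libraries with and without 5xFAD. Of 26 genes tested, 6 had an unadjusted p under 0.05 for Cnp loss, 6 for 5xFAD and 0 for the interaction, against 13.2%, 10.2% and 8.71% of 8185 genes. None passed the adjusted threshold, which 1.59%, 0.391% and 0.0489% of all genes did. For 5xFAD 24 of 26 log2 fold changes were positive with a median of 0.51, against 0.052 over all genes, and the median was 0.50 with Cd74 set to its limit. For Cnp loss 20 of 26 were positive with a median of 0.34, against 0.024. The mutants over WT gave 6 of 26 genes with an unadjusted p under 0.05 (15.1% of all genes) and 0 past the adjusted threshold (1.77% of all genes).

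**Figure D4:**
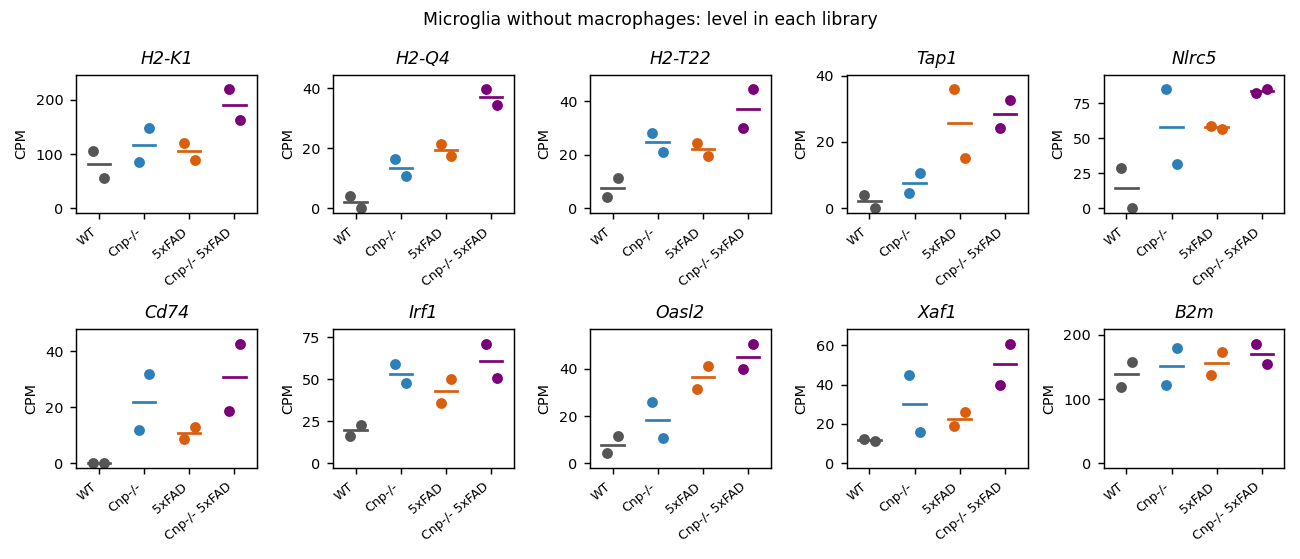
Level of 10 genes in microglia without macrophages (CPM, axis from 0) in each library, 2 points per genotype with a line at their mean. WT values rest on 168 and 51 nuclei, and Cd74 is at 0 in both.

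Within homeostatic microglia alone 12 genes could be tested. Their summed class I heavy chains were at 247 and 190 CPM in WT, 268 and 421 CPM in Cnp-/-, 316 and 302 CPM in 5xFAD and 544 and 358 CPM in Cnp-/- 5xFAD, so that the WT libraries were lowest for this sum. They were not for the effectors (456 and 506 CPM in WT, 409 CPM in Cnp-/- replicate 2), the peptide supply genes (296 and 278 CPM in WT, 268 CPM in Cnp-/- replicate 1) or the RNA sensors, where WT replicate 1 was highest at 141 CPM. DAM markers within the homeostatic label summed to 67.9 and 152 CPM in WT and to 161 to 513 CPM in the others. This sum was mostly Apoe, with 282 UMIs, against 24 of Lpl, 9 of Itgax, 3 of Cst7 and 1 of Gpnmb. The part of these markers in the class I sum was not tested. None of the 12 genes had an adjusted or an unadjusted p under 0.05 for Cnp loss, 5xFAD or the interaction, and 0 had an unadjusted p under 0.05 for the mutants over WT. Of all 4566 genes tested, 5.39%, 5.94%, 4.86% and 6.31% had an unadjusted p under 0.05 in these 4 comparisons, and 0.11%, 0.0657%, 0% and 0.131% passed the adjusted threshold. For 5xFAD 11 of 12 were positive with a median of 0.28, against 0.035 over all genes, and for Cnp loss 5 of 12 were positive with a median of -0.027.

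Among the subpopulations that the authors named, disease-associated microglia (DAM) held more class I than homeostatic nuclei and MyTE, the nuclei with myelin transcripts. The subpopulations were drawn by clustering these same counts, so that their levels are given without a test. Summed class I heavy chains averaged 681 ± 257 CPM in myelin-DAM (SD over 4 profiles), 468 ± 102 CPM in amyloid-DAM (4 profiles), 331 ± 111 CPM in homeostatic microglia (8 profiles) and 182 ± 99.5 CPM in MyTE (6 profiles). The homeostatic mean includes WT, which has no DAM profile. Within single libraries DAM also lay above homeostatic nuclei, but by little in Cnp-/- 5xFAD replicate 1 (amyloid-DAM 569 against 544 CPM) and Cnp-/- replicate 2 (myelin-DAM 445 against 421 CPM). Interferon-stimulated effectors averaged 985 ± 159 CPM in amyloid-DAM, 674 ± 215 CPM in myelin-DAM and 555 ± 111 CPM in homeostatic microglia. These means cover different genotypes, and in Cnp-/- 5xFAD, the one genotype with profiles of at least 20 nuclei of both DAM types, the effectors were at 901 and 1222 CPM in amyloid-DAM and at 943 and 744 CPM in myelin-DAM, without a common order in the replicates. Oasl2 averaged 84.2 CPM in amyloid-DAM, 27.1 CPM in myelin-DAM and 10.1 CPM in homeostatic microglia, whereas Nlrc5 averaged 96.7, 160 and 30.1 CPM. Class II genes summed to 613 ± 394 CPM in macrophages, 150.5 ± 55.8 CPM in myelin-DAM, 51.5 ± 41.5 CPM in amyloid-DAM and 11.9 ± 9.12 CPM in homeostatic microglia.

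Double mutants were compared with single mutants inside each DAM subpopulation. H2-K1 was the only one of 13 genes tested with an unadjusted p under 0.05, in amyloid-DAM of Cnp-/- 5xFAD over 5xFAD mice (0.66 ± 0.282, adjusted p = 0.9999, edgeR) and in myelin-DAM of Cnp-/- 5xFAD over Cnp-/- mice (0.80 ± 0.364, adjusted p = 0.804, edgeR). At the same unadjusted threshold were 3.01% and 6.18% of 3919 genes, so that 1 of 13 is near the background, and 0% passed the adjusted threshold in either comparison. In amyloid-DAM 10 of 13 log2 fold changes were positive (median 0.30, against -0.0015 over all genes), and in myelin-DAM 12 of 13 (median 0.69, against 0.023). Summed heavy chains were at 407 and 357 CPM in 5xFAD and 569 and 539 CPM in Cnp-/- 5xFAD in amyloid-DAM, and at 535 and 445 CPM in Cnp-/- and 715 and 1027 CPM in Cnp-/- 5xFAD in myelin-DAM. The double mutant lay above the single mutant in both.

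**Figure D5:**
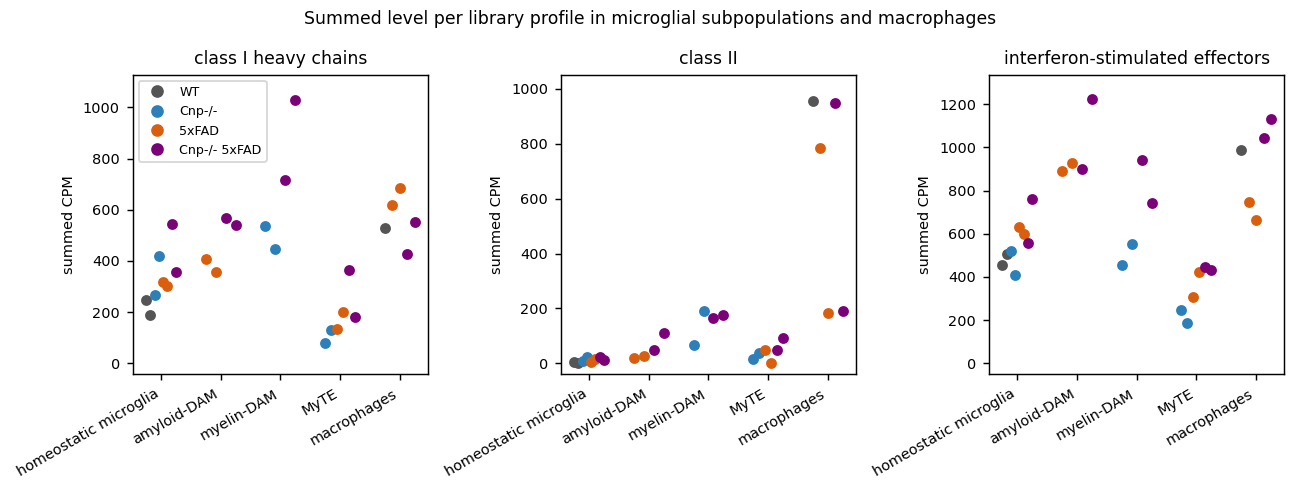
Summed CPM of class I heavy chains, class II genes and interferon-stimulated effectors in each library profile of at least 20 nuclei (points, coloured by genotype) of 4 microglial subpopulations and macrophages. Class II lies between 0 and 24.8 CPM in homeostatic microglia and between 183 and 954 CPM in macrophages.

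Astrocytes held these genes at lower summed levels than endothelial cells and microglia, and 22 of the 39 passed the filter on low counts. Their 5 highest were Rnf213 (66.5 ± 5.29 CPM, SD, n = 8), Stat2 (55.2 ± 5.80 CPM), Ifi27 (44.7 ± 9.14 CPM), H2-K1 (41.8 ± 4.02 CPM) and Ddx58 (25.9 ± 5.47 CPM). Both WT libraries lay below all 6 others for 8 of 22 genes tested (Nlrc5, Stat2, Irf9, Ifi27, Oasl2, Rsad2, Rnf213 and Ddx58), against 4.66% of 11809 genes, and above all others for 0 of 22, against 2.88%. Nlrc5 (4 and 3 UMIs in WT) and Oasl2 passed the filter through mutant libraries, so that their place in this order was partly set by the filter. The 6 astrocyte markers themselves summed to 9686 and 10249 CPM in WT and 10585 to 13247 CPM in the others, and the part of this in the order was not tested. Ddx58 was at 19.2 and 17.9 CPM in WT, 24.3 and 23.3 CPM in Cnp-/-, 30.2 and 31.2 CPM in 5xFAD and 31.7 and 29.3 CPM in Cnp-/- 5xFAD, with no overlap between libraries with and without 5xFAD (0.52 ± 0.153, adjusted p = 0.962, edgeR). This held for Ddx58 and Ifit3, 2 of 22 genes, against 2.03% of 11809 genes. Oasl2 was at 1.18 and 1.33 CPM in WT, 1.87 and 10.98 CPM in Cnp-/-, 14.5 and 9.48 CPM in 5xFAD and 10.4 and 13.4 CPM in Cnp-/- 5xFAD (5xFAD effect 2.01 ± 0.580, adjusted p = 0.950, or 0.0496 without the filter on low counts, edgeR). In astrocytes 4, 3 and 1 of 22 genes had an unadjusted p under 0.05 for Cnp loss, 5xFAD and the interaction, and 5 for the mutants over WT, against 5.43%, 4.86%, 4.17% and 5.53% of all genes. The count for the interaction was at the background, and 0% of all genes passed the adjusted threshold in any of the 4. Medians were 0.36 for Cnp loss (18 of 22 positive) and 0.37 for 5xFAD (19 of 22), against -0.011 and 0.0046 over all genes. The heavy chains H2-Q6 and H2-Q7, for which WT lay below the mutants in endothelial cells, gave astrocyte UMIs in 1 library each and were not tested there.

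Mature oligodendrocytes, the cells whose myelin lacks CNP, held few of these transcripts in any genotype. Only 7 of the 39 genes passed the filter on low counts, namely Nlrc5, Stat2, Irf9, Ifit2, Ifi27, Xaf1 and Rnf213, and the 5 highest were Xaf1, an apoptosis-related interferon target (55.4 ± 8.75 CPM, SD, n = 8), Stat2 (52.9 ± 12.2 CPM), Ifi27 (47.3 ± 20.6 CPM), Rnf213 (23.9 ± 10.5 CPM) and Irf9 (8.42 ± 6.82 CPM). H2-Ab1, Bst2 and Isg15 had 0 UMIs of 9445114, which allows up to 0.318 CPM. None of the 7 genes had an unadjusted p under 0.05 for Cnp loss, 5xFAD, the interaction or the mutants over WT, against 12%, 3.72%, 3.41% and 7.92% of 8761 genes. The adjusted threshold was passed by 0.765%, 0%, 0% and 0.0342% of these genes. The median was -0.26 for Cnp loss (2 of 7 positive, against -0.033 over all genes) and 0.44 for 5xFAD (7 of 7 positive, against -0.0053). Nlrc5 gave 1 and 0 UMIs in WT, 7 and 0 in Cnp-/-, 21 and 4 in 5xFAD and 13 and 5 in Cnp-/- 5xFAD. It passed the filter on low counts only with libraries that carry 5xFAD, so that its sign for 5xFAD was partly set by the filter.

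Summed class I heavy chains in mature oligodendrocytes were at 2.59 and 5.28 CPM in WT, 6.09 and 3.66 CPM in Cnp-/-, 15.0 and 12.3 CPM in 5xFAD and 51.3 and 14.4 CPM in Cnp-/- 5xFAD. The 4 libraries with 5xFAD did not overlap with the 4 without it, but no heavy chain passed the filter on low counts, and the sum was not tested. Microglial markers in these profiles summed to 8.54 to 33.5 CPM without and 16.8 to 39.7 CPM with 5xFAD, and endothelial markers to 0 to 5.18 CPM and 0 to 26.9 CPM, and their part in the sum was not tested. Single libraries stood apart in single genes. Ifi27 was at 48.3 and 62.4 CPM in WT, 45.1 and 1.22 CPM in Cnp-/-, 66.04 and 60.5 CPM in 5xFAD and 53.7 and 41.0 CPM in Cnp-/- 5xFAD, so that Cnp-/- replicate 2 was far below every other library. The effect of Cnp loss was -0.73 ± 0.645 (adjusted p = 0.731, edgeR), -2.81 without Cnp-/- replicate 1 (adjusted p = 0.0306) and -0.29 without Cnp-/- replicate 2 (adjusted p = 0.757, edgeR). H2-D1 was at 29.8 CPM in Cnp-/- 5xFAD replicate 1 and at 0 to 7.21 CPM in the other 7, where 36 of the 62 nuclei with an H2-D1 UMI lay in that 1 library. B2m had 0 UMIs in 6 of the 8 libraries and was at 7.77 CPM in 5xFAD replicate 1 and 7.44 CPM in Cnp-/- 5xFAD replicate 1.

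The effect of each mutation in mature oligodendrocytes, minus that in another type, was also tested, with the library as a block. None of 22 genes tested differed past the adjusted threshold from astrocytes, none of 35 from endothelial cells and none of 29 from microglia, for Cnp loss or for 5xFAD. For Cnp loss 0 genes had an unadjusted p under 0.05 in any of the 3, against 6.6%, 7.13% and 9.92% of 12553, 12615 and 10646 genes. The adjusted threshold was passed by 0%, 0.0238% and 0.132% of these genes. For 5xFAD the counts at an unadjusted p under 0.05 were 2, 5 and 3, against 3.35%, 3.37% and 5.52% of all genes, and 0%, 0% and 0.103% of all genes passed the adjusted threshold. The 5 against endothelial cells were B2m, Oasl2, H2-K1, Tap2 and H2-D1, which in mature oligodendrocytes were between 0 and 29.8 CPM. All 5 failed the filter on low counts in mature oligodendrocytes and entered through endothelial cells, as did all but 7 of the 35 genes, so that nothing is read from these counts.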

How the data were processed

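Nuclei of 8 libraries, 2 per genotype, were grouped by the labels. The authors aligned the reads to mm10 with Cell Ranger 6.1.2 (submitters' processing notes), removed ambient transcripts with CellBender, filtered nuclei on genes and UMIs and dropped clusters without identity; whether intronic reads were counted and how doublets were treated is not given in the sources used here. The authors deposited the UMI counts left after this step, without normalization, together with their cell type and microglial subpopulation. Removing ambient transcripts can set low counts to 0.

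Counts were summed per library and type (profiles of at least 20 nuclei), filtered by filterByExpr, scaled by TMM and tested two-sided with edgeR 4.0.16 (R 4.3.3), 1 mean per genotype, Benjamini-Hochberg over all genes, threshold 0.05. Cnp loss and 5xFAD are averaged over the other factor. Limits for counts of 0 cover counting error only. Alternatives were DESeq2 and its size factors, no filter, a replicate block, thinned nuclei, profiles of at least 5 nuclei and each library left out. The fits were tested on simulated data. Named are the 5 genes with the highest mean in each type, genes past the threshold and genes not tested anywhere; others were chosen after their values were seen. The genes and lists were chosen with earlier results of these data known. Promoters are from RefSeq, positions from GENCODE M21. A marker list of 1 further cell type is not reported here.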

Additional observations from a re-analysis of the deposited data

How the results depend on the processing

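The smallest microglial profile held 88299 UMIs, and levels near 1 UMI cannot be told from 0 there. Of 320 alternative counts over 28 comparisons, 10 held a gene past the adjusted threshold, and the cause was not tested. Without the filter on low counts, Cnp loss in endothelial cells gave 2 (Ifit1, adjusted p = 0.000133, and Ifit3, 0.00762, edgeR), 5xFAD in endothelial cells 1 (H2-Q7), 5xFAD in astrocytes 1 (Oasl2), the difference between mature oligodendrocytes and endothelial cells for 5xFAD 2 (B2m and H2-D1, both under the filter in mature oligodendrocytes), and the added contrast of the mutants over WT 4 in endothelial cells (Nlrc5, H2-Q6, H2-Q7 and Ifit1) and 1 in astrocytes (Oasl2). With each library left out, the count ranged from 0 to 1 for Cnp loss in mature oligodendrocytes (Ifi27 without Cnp-/- replicate 1), from 0 to 1 for 5xFAD in endothelial cells (H2-Q7 without WT replicate 1) and from 0 to 1 for mature oligodendrocytes against microglia for 5xFAD (B2m without 5xFAD replicate 2 or Cnp-/- 5xFAD replicate 2). DESeq2 and its size factors called 0 throughout.

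The replicate block called 0 genes in all 22 comparisons it was fitted to. Deviations of same-numbered libraries correlated between -0.088 and 0.161, so that the numbers give no pairing.

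Of 936 alternative fold changes of 80 gene and comparison pairs, 2 changed sign: with each library left out, the interaction of Ifi27 in mature oligodendrocytes ranged from -0.10 (without Cnp-/- replicate 2) to 4.93 (without Cnp-/- replicate 1), and the effect of Cnp loss on Bst2 in astrocytes from -0.21 (without Cnp-/- replicate 2) to 4.02 (without WT replicate 2). With profiles of at least 5 nuclei, the interferon-stimulated effectors in amyloid-DAM averaged 1337 CPM instead of 985 CPM.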
